A study of Camponotus floridanus with 48 samples.

Results

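Larva-to-larva variation in gene expression was compared between the short and the long end of the size range of Camponotus floridanus, the Florida carpenter ant. The short set held 14 of the 16 shortest larvae of the series (No. 2, 12, 16, 18, 20, 22, 23, 24, 47, 51, 54, 55, 58 and 61) and the long set held 9 of the 16 longest (No. 5, 26, 40, 41, 44, 46, 48, 76 and 79), so 23 of 48 larvae were used. All were female larvae of the terminal stage from 1 colony, each larva gave 1 library of whole-body polyA RNA, and the labels name no treatment. The sets differed in body length, which ran over 4783 to 5377 µm in short larvae and 6689 to 7508 µm in long larvae. The remaining 16 larvae of intermediate length were not compared here.

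Carpenter ant workers of one colony differ widely in adult size, and that size is set while the larva grows. Larvae of different sets can share a mean level of a transcript and still differ in how far single animals stray from it. The spread between animals takes in genotype, exact age within the stage, feeding state and the make-up of the body, as well as handling and library preparation. In whole-body RNA, fewer cells of a type and less RNA per cell cannot be told apart.

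The members were chosen partly on measured values. Larvae with a high score on the first principal component of all 48 libraries were left out, which removed 2 short larvae (No. 9 and 15) and 5 long ones (No. 3, 29, 49, 53 and 68), and the shallow libraries of No. 42 and 43 were removed from the long set. The larvae kept scored -62.8 to -13.5 in the short set and -46.2 to 3.03 in the long set, while those left out for their score had 33.7 to 104. The shallow libraries held 8928646 and 6608767 reads. At the length limits, No. 54 at 5377 µm was the last short larva kept and No. 62 at 5396 µm the first one outside, and No. 46 at 6689 µm was the shortest long larva kept and No. 33 at 6613 µm the first one outside. Removing larvae that stand apart takes spread out of a set, and it took more larvae from the long set.

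Libraries of the larvae kept held 36605646 to 63171579 reads assigned to genes in short larvae and 40466044 to 54435718 in long larvae.

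The typical spread of a gene between larvae was close in both sets, and slightly larger in long larvae. A straight line in length was removed from the log2 CPM (counts scaled by library size and composition) of each gene within each set, and the residual SD was taken with 12 degrees of freedom in short larvae and 7 in long larvae. Over 10389 genes, the median residual SD was 0.231 log2 units in short larvae and 0.241 in long larvae. The SD was larger in short larvae for 4601 genes and in long larvae for 5788, or 55.7%. The median log2 ratio of the SDs, short over long, was -0.07, with quartiles at -0.37 and 0.26.

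No gene passed the test for a difference in spread at an adjusted p of 0.05 in either direction (limma on absolute deviations from the line, Benjamini-Hochberg), so the share called was 0% each way. At an unadjusted p under 0.05, 260 genes (2.5%) were wider in short larvae and 620 (5.97%) were wider in long larvae, 880 (8.47%) in all. In simulated data, genes with no difference passed this unadjusted limit about as often. These counts are therefore a description and do not show that the genes differ in spread. The smallest adjusted p was 0.0587, shared by 3 genes that were wider in long larvae. A test on the counts themselves, a likelihood ratio of separate against shared dispersions, passed 2 genes (0.0193%) wider in short larvae and 17 (0.164%) wider in long larvae. It used edgeR's adjusted profile likelihood over a grid of dispersions, with p from a large-sample chi-square distribution, and is not a standard edgeR test. The numbers of larvae limit what can be called: an SD ratio of 1 with these degrees of freedom has a 95% normal-theory interval of 0.463 to 1.90.

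**Figure D1:**
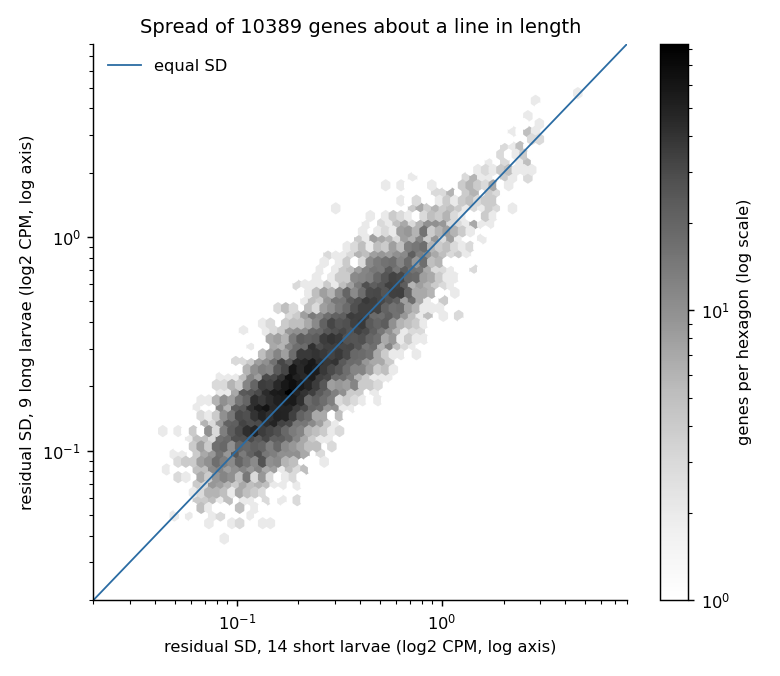
Residual SD of each of 10389 genes in the 14 short larvae (horizontal) and in the 9 long larvae (vertical), both in log2 CPM on log axes, with darker hexagons holding more genes. The cloud runs along the line of equal SD, with medians of 0.231 in short larvae and 0.241 in long larvae.

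The ranking of genes by SD was similar in the sets. The SDs of the same gene in short and long larvae had a Spearman correlation of 0.870 across genes, which share libraries and depth and are not independent replicates. The SD also varied with level in both sets, as given below, and the ranks were not compared at matched level. An SD above 1 log2 unit was reached by 420 of 10389 genes in short larvae and 545 in long larvae. In both sets 327 genes did so, which is 77.9% of the first list and 60.0% of the second. Of the 100 most variable among 8101 genes with a mean of at least 5 CPM, 73 were on the list of both sets. The 127 genes on either list were made up of 117 protein-coding genes, 6 long non-coding RNAs and 4 pseudogenes. Among all 10389 genes tested these classes held 9813, 426 and 114 genes, so both were mostly protein-coding. The classes of the 8101 genes were not counted.

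By class of gene, protein-coding genes had a median SD of 0.222 in short larvae and 0.233 in long larvae (9813 tested). The 426 long non-coding RNAs, RNAs with no known protein product, were more variable, with medians of 0.478 in short larvae and 0.456 in long larvae. The 114 pseudogenes had 0.542 in short larvae and 0.507 in long larvae. The median level also differed between these classes, at 25.8 CPM for protein-coding genes, 1.40 CPM for long non-coding RNAs and 2.03 CPM for pseudogenes, and low counts carry more counting noise. With genes cut by level into 5 groups of equal size, the median SD was 0.526 in short larvae and 0.537 in long larvae in the lowest group, and 0.174 in short larvae and 0.184 in long larvae in group 4. The median log2 SD ratio lay between -0.04 and -0.10 in every group.

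With counting noise modelled, the common dispersion estimated by edgeR, with length as a covariate, was 0.0761 in short larvae and 0.0959 in long larvae. These correspond to biological coefficients of variation of 27.6% in short larvae and 31.0% in long larvae. The log2 ratio of the dispersions was -0.33. It was -0.24 without No. 5, -0.47 without No. 2, -0.61 with no filter on low counts and -0.09 with the median of DESeq2's gene-wise dispersions.

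Seen by larva rather than by gene, the sets overlapped almost fully. The mean absolute deviation of a larva from the line of its set, averaged over genes and corrected for its leverage on the line, had a lowest, median and highest value of 0.198, 0.265 and 0.423 log2 units in short larvae. The same values in long larvae were 0.215, 0.308 and 0.410. No. 58 was closest to its line among short larvae and No. 48 among long larvae, and No. 2 and No. 5 stood farthest off in their sets. The means were 0.2794 ± 0.0629 (SD, n = 14) in short larvae and 0.2996 ± 0.0595 (SD, n = 9) in long larvae. The difference of -0.0203 lay within the spread between larvae (exact two-sided permutation test over 817190 splits, p = 0.449).

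A count of genes at least 2-fold off the line gave the same order. It ran from 255 through a median of 417 to 950 genes in short larvae, and from 280 through 492 to 833 genes in long larvae. No. 2 held the highest count in the short set and No. 5 in the long set. The difference in means was -79.6 genes (exact two-sided permutation test, p = 0.307). Of the genes off the line, 534 of 950 lay below it in No. 2 and 665 of 833 lay below it in No. 5.

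**Figure D2:**
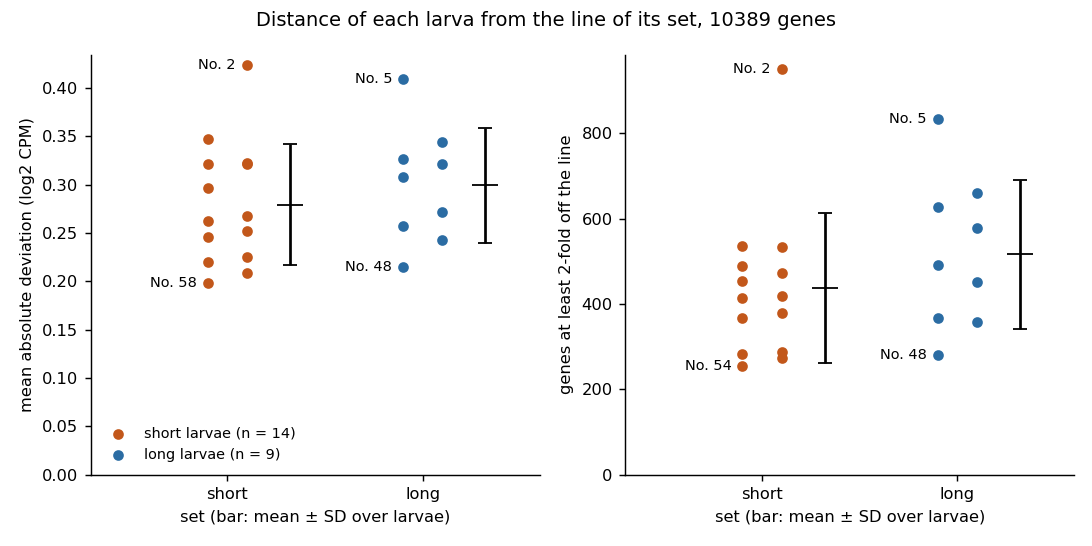
Mean absolute deviation in log2 CPM (left panel) and number of genes at least 2-fold off the line (right panel), 1 point per larva, short larvae left of long larvae; bars give the mean and SD over larvae. No. 2 with 950 genes and No. 5 with 833 genes lie above the rest of their sets, whose ranges overlap.

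Which set had the larger typical spread turned on single larvae. No. 2 held 12.2% of the summed squared deviations of the short set and No. 5 held 17.7% of those of the long set. No. 5 alone held over 50% of the squared deviation in 1614 of the 2808 genes that had such a leading larva in the long set. Without No. 5 the median log2 SD ratio was 0.16, with the larger SD in short larvae. Without No. 2 it was -0.18, and with both left out it was 0.05. The common dispersion stayed larger in long larvae in these cases. Its log2 ratio was -0.24 without No. 5, -0.47 without No. 2 and -0.37 with both left out.

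No. 2 and No. 5 also carried the lowest value in their sets of a measure that can follow RNA quality, the slope of a larva's log2 levels on log2 transcript length. The slope was -0.13 in No. 2 and -0.08 in No. 5, against -0.06 to 0.20 in the other short larvae and -0.01 to 0.21 in the other long larvae. No. 2 had the highest first-component score of its set, -13.5, and No. 5 the next highest of its set after No. 44, -7.65. The part of these measures in the spread was not tested.

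The choice of larvae moved these values. With all 16 short and all 16 long larvae, 2 genes were wider in short larvae and 469 in long larvae, of 10281 tested. The mean deviation per larva then differed by -0.101 (permutation test, p = 0.00586). With the shallow libraries alone left out, 16 short against 14 long, the counts were 3 and 412 of 10322, and the difference was -0.0957 (p = 0.0181, permutation test). Both comparisons bring back the larvae that the rule removed for their score.

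Many more genes were called for a difference in mean level than for one in spread. The tests are unlike in power, so the counts do not show which kind of difference was more common. In edgeR's quasi-likelihood test 1274 genes (12.3%) were higher in short larvae and 1340 (12.9%) were higher in long larvae. Of the 620 genes wider in long larvae at an unadjusted p under 0.05, 92 were higher in short larvae and 144 in long larvae. Of the 260 wider in short larvae, 13 were higher in short larvae and 30 in long larvae.

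The 5 genes of smallest p in each direction are described next as they lie, and none of them passed the adjusted limma test. The count-based test passed 4 of the 5 wider in long larvae: LOC105253753 (count-based adjusted p = 0.0397), LOC112637522 (0.043), LOC105256702 (0.0125) and LOC105252852 (0.0246). The gene table used here pairs the numbered loci with no product name, so no role is given for them. CPM is not corrected for transcript length, so levels are compared between larvae and not between genes.

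LOC105253753, a protein-coding gene, had a lowest, median and highest level of 40.0, 45.1 and 54.7 CPM in short larvae and 51.3, 76.1 and 141 CPM in long larvae. The short larvae sat within a narrow band, and the 3 lowest long larvae, No. 46, 79 and 76, lay at the top of it, while No. 44, 41 and 40 lay highest. The SD was 0.15 in short larvae and 0.61 in long larvae, and the mean deviation differed by -0.42 (SE 0.09, limma adjusted p = 0.0587). Its mean level, short over long, differed by a log2 fold change of -0.94 (SE 0.15, edgeR adjusted p = 0.000125).

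LOC112637522, also protein-coding, ran over 12.3, 14.6 and 19.0 CPM in short larvae and 24.3, 52.3 and 80.7 CPM in long larvae. The sets did not overlap, and the same larvae stood at the ends of the long set: No. 76, 79 and 46 lowest, No. 44, 40 and 41 highest. The SD was 0.16 in short larvae and 0.65 in long larvae (limma adjusted p = 0.0587).

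LOC105256702, a long non-coding RNA, showed the reverse order in the long set. It had 57.3, 122 and 197 CPM (lowest, median, highest) in short larvae and 0.467, 10.1 and 112 CPM in long larvae. No. 41, 44 and 40 were the lowest long larvae and No. 79, 76 and 46 the highest, and No. 46 was the one long larva above the lowest short larva. The SD was 0.49 in short larvae and 2.83 in long larvae (limma adjusted p = 0.0587).

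LOC105253988, the protein-coding gene next to LOC105256702 in the gene table, had the same 3 long larvae at each end. Its level was 27.0 to 181 CPM in short larvae and 0.690 to 67.5 CPM in long larvae, with No. 41, 44 and 40 lowest and No. 79, 76 and 46 highest in the long set. In the short set No. 18 was lowest and No. 47 highest for both genes. The order of the larvae between them differed in part: No. 16 was in the middle for LOC105256702, at 122 CPM, and among the 3 lowest for LOC105253988. The SD was 0.71 in short larvae and 2.42 in long larvae (limma adjusted p = 0.141). Whether the authors' counting used strand is not stated, so reads of overlapping neighbours cannot be told apart here. This gene was added after its values were seen.

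LOC105252852, protein-coding, ran over 7.20, 10.5 and 15.0 CPM in short larvae and 22.0, 61.7 and 384 CPM in long larvae. The sets did not overlap, and No. 41 was far above the other long larvae, the next of which was No. 44 at 158 CPM. The SD was 0.35 in short larvae and 1.42 in long larvae (limma adjusted p = 0.0831), and 1.08 in long larvae without No. 41. LOC112638453, protein-coding, ran over 153, 237 and 335 CPM in short larvae and 25.5, 140 and 228 CPM in long larvae. No. 46, the shortest larva of its set, was lowest, and the SD was 0.34 in short larvae and 1.06 in long larvae (limma adjusted p = 0.0831). Without No. 46 the log2 SD ratio was -0.84, against -1.64 with it.

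The long larvae at the high end of LOC105253753 and LOC112637522, No. 41, 44 and 40, lay in the middle of the long set by length, at 7115 to 7256 µm, and those at the low end lay at both its ends. With a curve instead of a line removed, the log2 SD ratio of LOC105253753 was -1.27 (adjusted p = 0.263) and that of LOC112637522 was -1.67 (adjusted p = 0.140), against -2.02 and -2.03 with the line. Over all 40 alternatives their adjusted p ran from 0.00519 to 0.664 and from 0.00591 to 0.664, and each was under 0.05 in 17. LOC105256702 had an adjusted p from 0.00376 to 0.664, under 0.05 in 15 of 40. LOC105252852 had 0.0013 to 0.664, under 0.05 in 13, and LOC112638453 had 0.017 to 0.784, under 0.05 in 8. All 5 genes kept the larger SD in long larvae in every alternative run.

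The genes wider in short larvae showed a different arrangement. LOC105252771, protein-coding, had 21.7, 23.2 and 34.9 CPM (lowest, median, highest) in short larvae and 26.8, 28.1 and 31.5 CPM in long larvae. In the short set No. 51, 55, 22 and 2 stood above the other 10, at 28.2 to 34.9 CPM against at most 25.1 CPM, and the long larvae lay above those 10 and partly within the range of the 4. The SD was 0.21 in short larvae and 0.04 in long larvae (limma adjusted p = 0.208). The count-based test passed this gene (count-based adjusted p = 0.043). Its dispersion in long larvae was 6.1e-05, the lowest value on that test's grid, so spread beyond counting noise was not resolved there. The same held for LOC105252947 and LOC105256733, described below.

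LOC105259018, protein-coding, ran over 58.2, 83.9 and 91.6 CPM in short larvae and 68.7, 74.8 and 78.6 CPM in long larvae. Here the same 4 short larvae, No. 22, 2, 55 and 51, were the lowest, at 58.2 to 65.0 CPM, below every long larva. The SD was 0.24 in short larvae and 0.06 in long larvae (limma adjusted p = 0.208). LOC105252947, protein-coding, ran over 29.3, 36.4 and 39.7 CPM in short larvae and 31.5, 32.6 and 33.9 CPM in long larvae. No. 51, 55 and 22 were lowest, the long larvae lay within the short range, and the SD was 0.16 in short larvae and 0.03 in long larvae (limma adjusted p = 0.141).

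LOC105256733, protein-coding, ran over 15.7, 19.3 and 21.3 CPM in short larvae and 19.9, 21.2 and 22.4 CPM in long larvae. No. 55, 54 and 51 were lowest, and the SD was 0.15 in short larvae and 0.04 in long larvae (limma adjusted p = 0.208). LOC105255003, protein-coding, ran over 3.00, 4.50 and 8.19 CPM in short larvae and 5.29, 6.23 and 7.35 CPM in long larvae. In the short set 8 larvae lay below the lowest long larva and 2, No. 54 and 24, above the highest, with an SD of 0.52 in short larvae and 0.17 in long larvae (limma adjusted p = 0.208).

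Over the same 40 alternatives these 5 genes kept the larger SD in short larvae, but the ratio came close to even in some. The lowest log2 SD ratio was 0.02 for LOC105259018, 0.17 for LOC105255003, 0.28 for LOC105256733, 0.64 for LOC105252771 and 0.73 for LOC105252947. The adjusted p was under 0.05 in 2 of 40 for LOC105255003 and in 1 of 40 for each of the others.

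**Figure D3:**
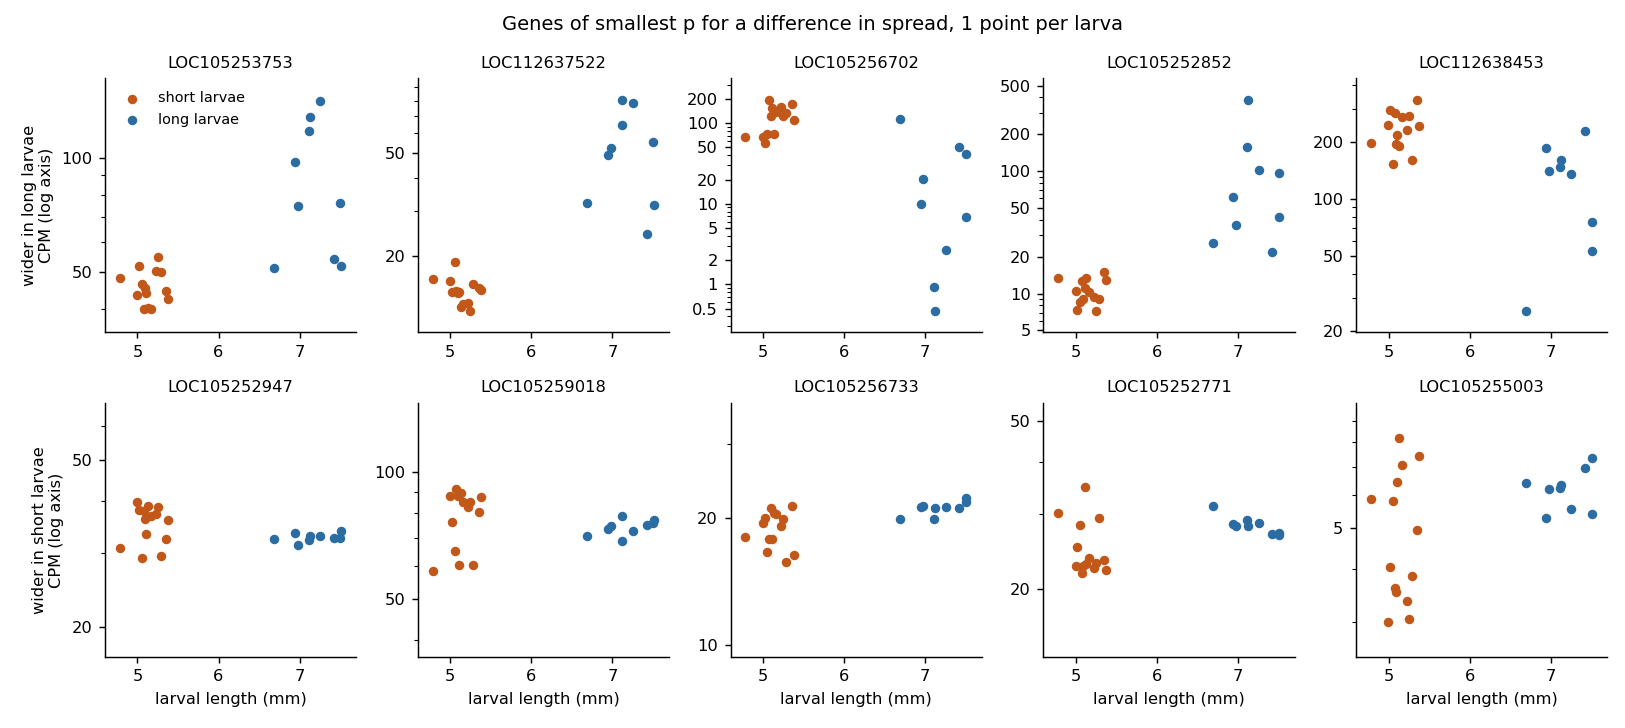
CPM (log axis, scaled per gene) against larval length in mm for the 5 genes of smallest p wider in long larvae (top row) and the 5 wider in short larvae (bottom row), 1 point per larva. In the top row the long larvae spread over up to 2.83 log2 units (SD) where short larvae sit close together; in the bottom row the short larvae spread and the long larvae have SDs of 0.03 to 0.17.

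None of the 4 genes that carry a symbol passed the test for spread. Traa and Trab, copies of transformer, the splicing regulator that directs female development in insects, both had a larger SD in short larvae without passing the test. Traa had 74.8, 93.1 and 220 CPM (lowest, median, highest) in short larvae and 94.0, 178 and 201 CPM in long larvae. In the short set No. 51, 55, 22 and 2, the 4 larvae that also stood apart in LOC105252771 and LOC105259018, had 193 to 220 CPM, and the other 10 had at most 97.2 CPM. Its SD was 0.60 in short larvae and 0.42 in long larvae (limma adjusted p = 0.896).

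Trab placed the same 4 short larvae highest, at 45.1 to 53.9 CPM, with at most 34.1 CPM in the other 10 and 28.5 to 52.7 CPM in long larvae. Its SD was 0.45 in short larvae and 0.26 in long larvae (limma adjusted p = 0.695). That No. 2, 22, 51 and 55 recur was seen in the data and not tested. Their first-component scores of -13.5, -26.3, -20.4 and -28.0 lie in the upper part of the short set. No. 18 and 12 scored in the same range, at -16.5 and -24.3, with 79.5 and 95.2 CPM of Traa, so the score did not set the 4 apart.

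The entry with the symbol Titin, the name of the giant elastic protein of the muscle sarcomere, had a read-weighted transcript length of 4710 bases. Whether it encodes the whole protein was not examined. Its level was 10.8, 14.7 and 25.4 CPM in short larvae and 18.4, 21.8 and 39.8 CPM in long larvae. The ranges overlapped, No. 51 was highest among short larvae and No. 76 among long larvae, and the SD was 0.35 in short larvae and 0.38 in long larvae (limma adjusted p = 0.944). Its mean level differed by a log2 fold change of -0.58 (SE 0.15, edgeR adjusted p = 0.00872). Makorin-1, a member of the makorin ubiquitin ligase family, had an SD of 0.19 in short larvae and 0.22 in long larvae (limma adjusted p = 0.965).

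Of the 6 most abundant genes, 3 had residual SDs above 1 in both sets. LOC105258932, LOC105258900 and LOC105258901 follow each other in the gene table and together made up 0.177%, 14.4% and 19.2% (lowest, median, highest) of scaled counts in short larvae and 1.08%, 13.1% and 20.2% in long larvae. A single short larva, No. 51, was far below the others, the next being No. 18 at 8.37%, while in the long set No. 44 was lowest and No. 76 next at 3.85%. LOC105258932, for one, had 802 CPM in No. 51 against a short median of 66179 CPM, and 5082 CPM in No. 44 against a long median of 59900 CPM.

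The residual SD of LOC105258932 was 1.77 in short larvae and 1.42 in long larvae (limma adjusted p = 0.982). No. 51 held 86.8% of its squared deviation in short larvae and No. 44 held 67.9% in long larvae, and for the other 2 genes these shares were 86.8% and 86.9% in short larvae and 68.0% and 68.1% in long larvae. Without those larvae the SD, on log2 of CPM plus 0.05, was 0.38 in short larvae and 0.74 in long larvae. Whether the 3 genes are near-identical copies between which the authors' estimation could split reads was not examined.

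LOC109610441, a protein-coding gene elsewhere in the table and among the most variable in the long set, was also low in No. 51, 44 and 76. Its level was 8.25, 7889 and 14830 CPM (lowest, median, highest) in short larvae and 2.81, 2527 and 12240 CPM in long larvae. No. 51 and No. 18 were the lowest short larvae and No. 76, 44 and 41 the lowest long larvae. The 3 neighbours had the same larvae lowest, but No. 18 and 41 were close to their lines there. For LOC105258932 these 2 larvae deviated by -0.03 and 0.08 log2 units, against -1.99 and -4.10 for LOC109610441. Its SD was 2.79 in short larvae and 4.46 in long larvae (limma adjusted p = 0.295). No. 51 held 74.5% of the squared deviation in short larvae, whose SD without it was 1.24.

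The other 3 of the 6 most abundant genes varied less, and each had the larger SD in short larvae without passing the test. LOC105250772 had 41870 to 82650 CPM in short larvae and 33910 to 49210 CPM in long larvae, with SDs of 0.26 in short larvae and 0.17 in long larvae. LOC105255423 had 10270 to 26180 CPM in short larvae and 17220 to 33010 CPM in long larvae. In the long set No. 5 was lowest and the next larva had 27290 CPM, so that the SD of 0.45 in short larvae and 0.27 in long larvae became 0.07 in long larvae without No. 5. LOC105256665 had 5260 to 25290 CPM in short larvae and 9732 to 33100 CPM in long larvae, with SDs of 0.59 in short larvae and 0.35 in long larvae.

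**Figure D4:**
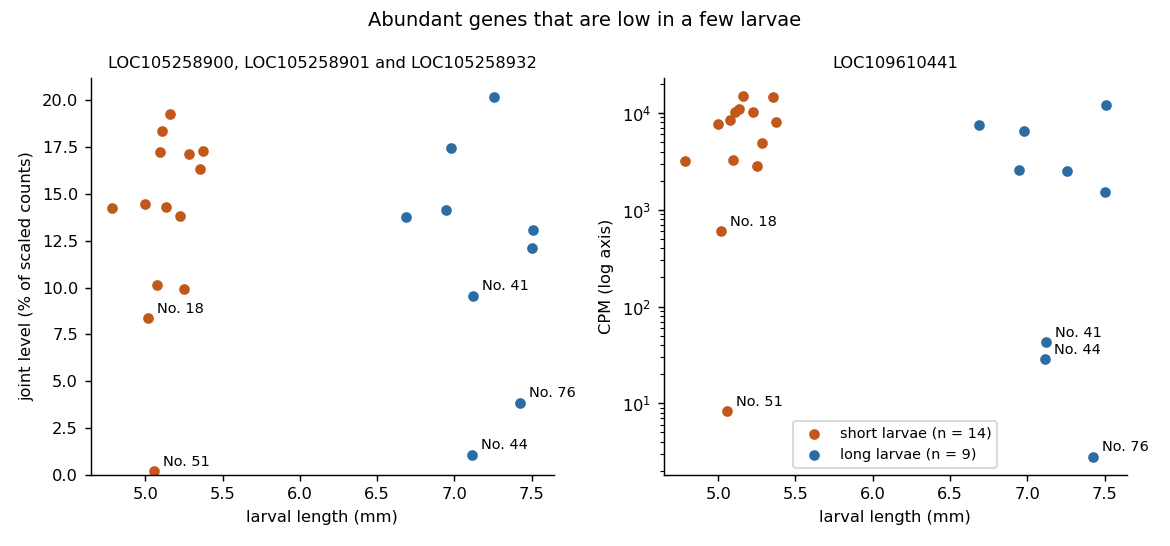
Joint level of 3 neighbouring abundant genes in percent of scaled counts (left panel) and CPM of LOC109610441 on a log axis (right panel) against larval length in mm, 1 point per larva. No. 51 among short larvae and No. 44 and 76 among long larvae are low in both panels, at 0.177%, 1.08% and 3.85% on the left.

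The count-based test called 10 genes with a mean of at least 5 CPM wider in long larvae. In 4 of them, described above, no larva held over 50% of the squared deviation of the long set. In the other 6, all protein-coding and named after the result was seen, 1 long larva held more than that. LOC105249395 had 83.0, 92.7 and 100.5 CPM (lowest, median, highest) in short larvae and 84.0, 93.2 and 255 CPM in long larvae. After No. 44 the next long larva, No. 46, had 121 CPM. The SD of 0.09 in short larvae and 0.51 in long larvae became 0.17 in long larvae without No. 44 (count-based adjusted p = 0.00244 with it).

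LOC105250629 had 397 CPM in No. 44, with 29.0 to 63.7 CPM in short larvae and 33.3 to 98.5 CPM in the other long larvae. LOC105252756 had 217 CPM in No. 44, with 57.8 to 78.2 CPM in short larvae and 70.7 to 93.0 CPM in the other long larvae. The long SD was 1.154 for LOC105250629 and 0.51 for LOC105252756, and 0.51 and 0.14 without No. 44. LOC105251735 had 525.7 CPM in No. 44, with 2.51 to 22.9 CPM in short larvae and 6.15 to 27.6 CPM in the other long larvae, and its long SD of 1.96 became 0.52 without No. 44. No. 44 also had the highest first-component score of the larvae kept, 3.03, nearest to those left out, and the part of that score in these calls was not tested.

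For the other 2 genes No. 41 led and No. 76 followed. LOC105255615 had 366 CPM in No. 41 and 165 CPM in No. 76, with 49.8 to 90.2 CPM in short larvae and 40.6 to 80.4 CPM in the remaining long larvae. LOC105253679 had 96.0 CPM in No. 41 and 59.2 CPM in No. 76, with 12.4 to 25.1 CPM in short larvae and 10.97 to 21.3 CPM in the remaining long larvae. The long SD was 1.01 for LOC105255615 and 1.13 for LOC105253679, and 0.58 and 0.72 without No. 41.

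The widest spread of all came from genes that were present in some larvae and near 0 in others, in both sets. At a limit of at least 5 CPM in 1 larva and at most 0.1 CPM in another, 54 of 10389 genes met this in short larvae and 45 in long larvae. In both sets 23 genes did so, which is 42.6% of the first list and 51.1% of the second. A larger set of larvae meets such a limit more easily. A group of 10 genes, of 13878, had every one of the 23 larvae either at 2 CPM or more or below 0.3 CPM, with at least 2 larvae on each side. They were picked after their values were seen, and their spread is given as a description.

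A set of 4 genes was on in the same 13 larvae: the pseudogene LOC112638006, the protein-coding LOC112639836, its neighbour in the gene table LOC112639856, a long non-coding RNA, and the protein-coding LOC112637027, which missed the limit by 1 larva at 0.402 CPM. They were on in short No. 18, 20, 23, 24, 51, 55, 58 and 61 and in long No. 26, 44, 46, 48 and 76. LOC112638006 had 14.1 to 29.8 CPM in the 8 short larvae with it and at most 0.101 CPM in the other 6, and 14.9 to 20.5 CPM in the 5 long larvae with it and 0 in the other 4.

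LOC105253677, a protein-coding gene not adjacent to those in the table, was on in the remaining larvae and in no other. It had 12.0 to 30.6 CPM in short No. 2, 12, 16, 22, 47 and 54 and at most 0.0527 CPM in the other 8. In long No. 5, 40, 41 and 79 it had 23.0 to 31.4 CPM, and at most 0.179 CPM in the other 5. Its state was opposite to that of LOC112638006 in 23 of 23 larvae.

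The 25 larvae outside the sets, which did not enter the choice of these genes, gave the same pairing. Taking 2 CPM or more as on, LOC112638006, LOC112639836 and LOC112637027 were in the same state in 25 of 25, with LOC112638006 between the limits in 1 larva that counts as below, and LOC105253677 was in the opposite state in 25 of 25. LOC112639856 matched LOC112639836 in 20 of 25 on the same terms, and it lay between the limits in the other 5. Neither arrangement followed the sets: LOC112638006 was on in 8 of 14 short and 5 of 9 long larvae. Its SD was 4.55 in short larvae and 4.87 in long larvae (limma adjusted p = 0.698).

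A second pair of opposite genes turned up at low level. The long non-coding RNA LOC112637445 was at 0 in short No. 2 and 58, with 2.32 to 4.64 CPM in the other 12 short larvae and 2.15 to 3.93 CPM in all 9 long larvae. The long non-coding RNA LOC112639120 was found in those 2 larvae alone, at 4.73 CPM in No. 2 and 2.98 CPM in No. 58. In the 25 larvae outside the sets the pair was opposite in 24. LOC112637445 was one of the 2 genes that the count-based test called wider in short larvae (count-based adjusted p = 0.0413). Its SD was 2.36 in short larvae and 0.32 in long larvae, and the call rests on No. 2 and 58.

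Other genes of this kind followed their own order of larvae. LOC105250137, protein-coding, was on in 9 of 14 short larvae at 22.0 to 33.5 CPM and in 3 of 9 long larvae at 24.4 to 28.1 CPM. LOC112638491, protein-coding, was on in 7 of 14 short larvae at 2.63 to 37.6 CPM and in 3 of 9 long larvae at 23.2 to 38.7 CPM. Their states matched in 11 of 23 larvae. LOC105252539, protein-coding, was at 0 in short No. 16 and in long No. 26 and 41 and at 4.09 CPM or more in the other 20. LOC105252710, protein-coding, was on in short No. 16, 18, 54 and 58 at 8.13 to 19.9 CPM and in long No. 40 at 75.7 CPM, and at 0 in the other 18. Estimated counts can be shared out unequally between near-identical copies or alleles annotated as separate genes, and this was not tested for any gene of this kind.

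**Figure D5:**
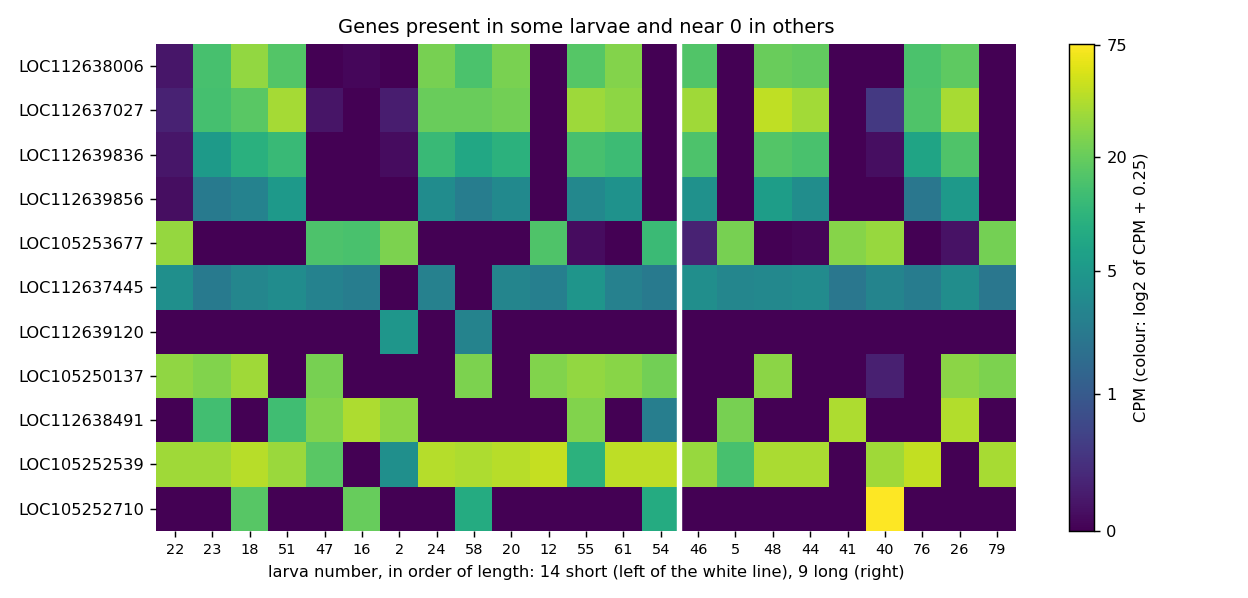
CPM (colour, log2 of CPM plus 0.25) of 11 genes present in some larvae and near 0 in others, with the 14 short larvae left of the white line and the 9 long larvae right of it, each in order of length. The top 4 genes are on together in 13 larvae, and LOC105253677 is on in the other 10.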

How the data were processed

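PolyA RNA of whole larvae was sequenced paired-end after a strand-marking library preparation, per the labels' protocols. Per the submitters' processing notes the tools were bcl2fastq 2.20, Trim Galore 0.6.7, DESeq, DESeq2 and Salmon, with no roles. Strand setting and genome build: not given in the sources used here. Each larva's deposited file gives estimated counts (expected counts), and other values such as transcript lengths, per the file headers. The authors' deposited table of normalized signal per transcript was used in 1 alternative.

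Counts were summed over transcripts of 13878 genes with RefSeq names of Cflo_v7.5, which matched 25811 of 26315 transcripts by accession, 348 by symbol and 155 by tRNA name. They were rounded, filtered with filterByExpr and scaled by TMM in edgeR 4.0.16 (R 4.3.3), on the 23 larvae, with a prior count of 2. An entry that names no gene, at most 0.00124% of a library, was left out. Absolute residuals about a line in length per set, divided by the square root of 1 minus leverage, were compared with limma 3.58.1, using a trended prior and Benjamini-Hochberg adjustment at 0.05. One value per larva was compared by exact permutation of larvae, or on random splits in the alternatives with a larger long set. Dispersions were estimated with edgeR, and DESeq2 1.42.0 gave alternatives. First-component scores came from the log2 CPM of all 48 larvae. The script was tested on simulated data; among genes with no simulated difference, the limma test also passed more at an unadjusted p under 0.05 than that share, and about as many as in the larvae. Figures were made with matplotlib 3.10.9 in Python 3.11.15.

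Genes named for spread are the 5 of smallest p per direction with a mean of at least 5 CPM, since none passed; the 6 of highest level and genes with a symbol were added, and the text says where a gene was chosen later. Lists by product name could not be matched, because the gene table gives symbols only. The larvae, lists and tests were chosen with earlier results of these data known. Each library is 1 larva, counting intervals are not given for genes, and p-values measure the spread between larvae of 1 colony.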

Additional observations from a re-analysis of the deposited data

Results flagged for a closer look

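Of 39 sets of values in the 9 long larvae (levels of the named genes, as log2 of CPM plus 0.05, and the per-larva measures), 6 had 1 larva whose gap to its nearest neighbour, as a share of the whole range, passed the 95% critical value of Dixon's test. Chance alone flags about 1 in 20 sets that were not picked for an extreme larva. The 4 genes led by No. 44 below are on the list because the count-based test called them, so their ratios restate that choice. The short set, with over 10 larvae, was not screened this way. LOC105255423 had a ratio of 0.708 and LOC112639910 one of 0.498, both with No. 5 lowest. No. 44 was highest for LOC105249395 (0.669), LOC105250629 (0.563), LOC105252756 (0.755) and LOC105251735 (0.663). LOC112639910, protein-coding and among the most variable genes, had 0.288 CPM in No. 5 and 6.86 to 144 CPM in the other long larvae.

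The entry that matched no gene held a median of 71 reads over the 23 larvae, with 42 to 109 reads in short larvae and 32 to 107 in long larvae, above a floor of 3 reads in all 23.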

How the results depend on the processing

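No paired analysis was possible because the larva numbers of the short and long sets do not overlap. Counts of genes wider in long larvae, 0 as reported, were 374 with no filter (58 in short larvae), 3 with a mean of at least 5 CPM, 3 with a prior count of 5, 8 with the variance stabilising transformation, 8 with a quadratic in length, 51 with the first residual component removed (5 in short larvae), 2 with thinned counts, 42 for single transcripts (29 in short larvae), 41 in the authors' table (30 in short larvae), 17 in the count-based test (2 in short larvae), 1 with No. 42 and 43 kept, and 12 with No. 2 and No. 5 both left out, an alternative added after seeing the data. Scaling by RLE or by upper-quartile factors, a prior count of 0.5, squared deviations and no line removed each gave 0 genes in both directions. Genes wider in long larvae were 469 with all 16 against 16 larvae (2 in short larvae), and 412 with 16 against 14 (3 in short larvae).

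In those last comparisons the median log2 SD ratio was -0.43 and -0.40, the log2 dispersion ratio -0.80 and -0.89, the difference in mean deviation -0.101 and -0.0957, and that in genes 2-fold off the line -383.2 and -375.7 (permutation p = 0.00469 and 0.0134). The latter difference, a measure added after seeing the data, was -179.6 with No. 42 and 43 kept (p = 0.0342, permutation test on random splits). With the variance stabilising transformation it was -63.7 (p = 0.0214, exact permutation test). For single transcripts the direction turned: the mean deviation differed by 0.00388, the genes 2-fold off the line by 70.6, and the dispersion ratio was 0.0366. In the authors' table those differences were 0.00884 and 91.9.

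Leaving out 1 larva gave 0 to 1 genes wider in short larvae and 0 to 18 in long larvae, with 18 without No. 40 and without No. 48. The median ratio then ran from -0.18 to 0.16, the dispersion ratio from -0.47 to -0.24, the mean deviation from -0.0377 to 0.00442 and the genes 2-fold off the line from -139.6 to -22.7; the signs of the median ratio and of the mean deviation turned without No. 5. Causes of these shifts were not tested.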
